A study of Homo sapiens with 4 samples.

Results

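The 7 genes described here encode surface proteins used as markers of carcinoma cells or of stem cells, and all 7 were found by symbol among the 58740 genes of the deposited table. They are EPCAM, CD24, PROM1 (the stem cell antigen CD133), ALCAM (CD166), CEACAM1, CEACAM5 and CEACAM6. RNA was sequenced from spheroids of 4 established human colon lines with 1 library each. HCT116 and DLD-1 were established from colorectal carcinomas and SW620 from a metastasis in a lymph node, while HCEC-1CT derives from non-cancerous colon and was made immortal with CDK4 and TERT. The labels give every line as epithelial and wild type, and name no treatment. All were grown for 7 days on a low-attachment surface in medium with 10% serum, and RNA was taken from the spheroids of 2 plates per line. With 1 library a line there is no replicate and no test, and each value describes 1 library of 1 line. The 3 comparisons with HCEC-1CT share its library.

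The 7 proteins sit at the cell surface in different ways. EPCAM is a transmembrane adhesion molecule of epithelia that is cleaved to release a signalling fragment, and it associates with the tight junction protein claudin-7. CD24 is a short, heavily glycosylated protein held by a glycolipid (GPI) anchor and is a ligand of P-selectin and of the immune receptor Siglec-10. PROM1 spans the membrane several times and lies on protrusions of the plasma membrane. ALCAM is an adhesion molecule of the immunoglobulin superfamily that binds itself and CD6, a surface protein of T cells. The carcinoembryonic antigen family belongs to the same superfamily: CEACAM5 and CEACAM6 are GPI-anchored, whereas CEACAM1 crosses the membrane and, in its long form, carries inhibitory tyrosine motifs in its tail. CEACAM5 is the antigen followed in the blood of patients with colorectal cancer.

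The values are FPKM, fragments scaled to transcript length and library size. From the steps of low values the libraries corresponded to about 25300000 fragments in HCT116, 23300000 in DLD-1, 28700000 in SW620 and 29500000 in HCEC-1CT. One FPKM over 2 kb thus stands for 46.7 to 59.0 fragments. Ratios are log2 ratios of FPKM plus 1, and the limit for a call was a 4-fold difference with 1 FPKM or more on the higher side. The median of 10409 genes with 1 FPKM in every library lay 0.38, 0.42 and 0.30 (log2) above HCEC-1CT in HCT116, DLD-1 and SW620, and ratios as given include that shift. The epithelial label of HCEC-1CT was not borne out by its markers. Of 10 epithelial markers 4 (KRT19, KRT20, CDH1 and DSP) were listed at 0 there, and their summed level was 1496 to 6639 FPKM in the cancer lines, against 8.83 FPKM in HCEC-1CT. All 11 fibroblast markers reached 1 FPKM in HCEC-1CT, and their sum was 2.75 to 28.7 FPKM in the cancer lines, against 1119 FPKM in HCEC-1CT. The part of this difference in the results was not tested. Endothelial and immune markers summed to 0.883 to 15.8 FPKM and 1.88 to 17.0 FPKM over the 4 libraries, and 3 genes carried most of the higher sums. PECAM1 (endothelium) stood at 15.0 FPKM in SW620 and 5.32 FPKM in HCEC-1CT, CD68 (macrophages) at 16.6 FPKM in SW620 and 7.56 FPKM in HCEC-1CT, and CD14 (monocytes) at 9.40 FPKM in HCEC-1CT. MS4A1 (B cells) and FCGR3B (neutrophils) were listed at 0 in all 4, and the part of these markers in the results was not tested.

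Against HCEC-1CT the cancer lines shared a high level of EPCAM and CD24, while the other members divided the lines. EPCAM and CD24 passed 4-fold in all 3 cancer lines, as did 2.68% of the 18637 genes with 1 FPKM in any library. In HCT116 3 of 7 members were higher (EPCAM, CD24 and PROM1) and 0 lower, where 10.3% of all genes tested were higher and 5.73% lower. In DLD-1 4 were higher (EPCAM, CD24, CEACAM1 and CEACAM5) and 0 lower, against 10.4% and 6.3% of all genes. In SW620 6 were higher, all but ALCAM, and 0 lower, against 10.3% and 6.36%. The median log2 ratio of the members was 0.72, 2.97 and 5.90 in HCT116, DLD-1 and SW620, beside 0.39, 0.43 and 0.29 over all genes tested. Of the genes called, 64.3%, 62.4% and 61.9% were on the higher side. That share was 53.3%, 52.3% and 54.7% with median-ratio scaling, which left the members' counts at 3, 4 and 6. On the TPM scale it was 52.7%, 60.9% and 55.3%. The counts were then 3, 5 and 6, with CEACAM6 added in DLD-1 at a log2 ratio of 2.61. As CEACAM6 was listed at 0 in HCEC-1CT, that ratio rose because TPM values are larger beside the added 1. In bulk RNA, fewer cells with a transcript and less of it per cell cannot be told apart.

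**Figure D1:**
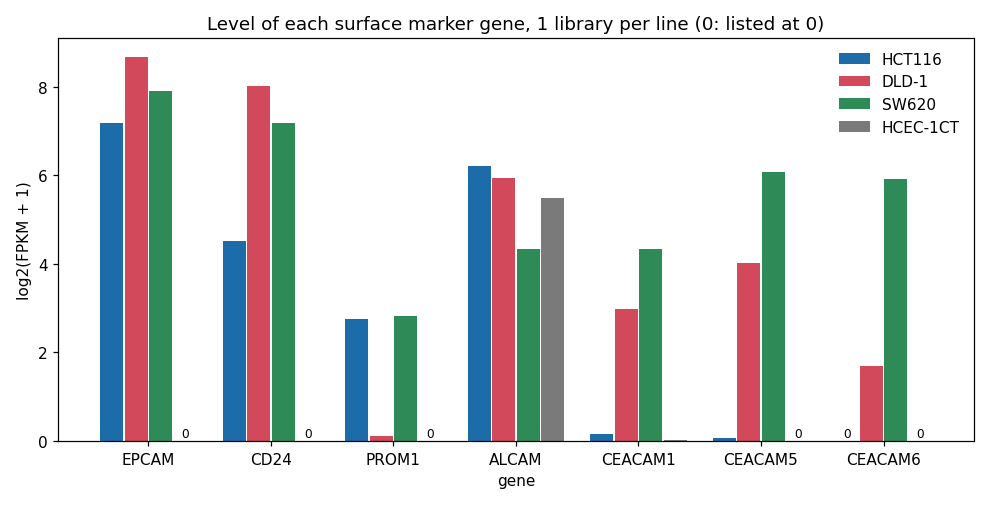
Level of each of the 7 genes, as log2(FPKM + 1), with 1 bar per library in the order HCT116, DLD-1, SW620 and HCEC-1CT; a 0 marks a gene listed at 0. ALCAM is the one member with a tall bar in HCEC-1CT, at 43.8 FPKM, and the 3 CEACAM genes are tallest in SW620.

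EPCAM (ENSG00000119888) lies on the forward strand of chromosome 2, from 47345158 to 47387601 in hg38. It stood at 144 FPKM in HCT116, 406 FPKM in DLD-1 and 237 FPKM in SW620, and was listed at 0 in HCEC-1CT. All 3 cancer lines were high, and the counting intervals (95% Poisson, from the estimated fragments, covering counting error only) did not overlap. These levels lay above 98.1%, 99.4% and 98.7% of the genes with 1 FPKM in HCT116, DLD-1 and SW620. At the depth of the HCEC-1CT library 3 fragments would have read 0.0590 FPKM. Among 4496 genes of 10 FPKM or more in HCT116, DLD-1 and SW620 alike, 30 (0.667%) had a 0 there, EPCAM and CD24 among them. The same count with another line at 0 was 5 of 3795 for HCT116, 7 of 3814 for DLD-1 and 3 of 3850 for SW620. None of the 77 cytosolic ribosomal protein genes was listed at 0 in any library.

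The transcripts of EPCAM set HCT116 apart. EPCAM-201, which codes for 314 residues, carried 119, 392 and 234 FPKM in HCT116, DLD-1 and SW620, or 82.9%, 96.6% and 99.0% of the gene. EPCAM-202, which starts 23990 bases upstream and codes for 342 residues, stood at 23.2 FPKM in HCT116, 0.0341 FPKM in DLD-1 and 0.00546 FPKM in SW620. That is 16.1% of the gene in HCT116, from about 899 fragments, while DLD-1 had about 1 fragment of it. The 2 transcripts differ in their coding starts: 160 coding bases of EPCAM-202 are absent from the coding part of EPCAM-201, and 76 the other way. How a program divides fragments among transcripts that share most exons is an estimate, and the shares have no replicate. No 100-base window of EPCAM-201 occurred in a transcript of another gene.

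CD24 (ENSG00000272398; chromosome 6, 106969831 to 106975627, reverse strand) was less even over the cancer lines. It was found at 22.0 FPKM in HCT116, 259 FPKM in DLD-1 and 143 FPKM in SW620, and was listed at 0 in HCEC-1CT, where 3 fragments would read 0.0467 FPKM. HCT116 was the low one of the cancer lines. It was 4-fold or more lower there than in DLD-1 (log2 ratio -3.50, counting interval -3.60 to -3.39) and in SW620 (-2.65, interval -2.75 to -2.54). In DLD-1 and SW620 CD24 lay above 99.0% and 97.8% of genes with 1 FPKM, and in HCT116 above 78.7%. DLD-1 and SW620 were within 4-fold of each other, with a log2 ratio of 0.85 for DLD-1 over SW620.

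Both main CD24 transcripts code for the same 80 residues. CD24-201 held 91.7%, 62.7% and 76.0% of the gene in HCT116, DLD-1 and SW620, and CD24-204 held 4.13%, 34.3% and 22.7%. CD24-204 stood at 0.908 FPKM in HCT116, 88.7 FPKM in DLD-1 and 32.5 FPKM in SW620. The lower total of HCT116 was thus seen in both forms, and more so in CD24-204. CD24 has processed copies elsewhere in the genome, and 17 of 2081 windows of 100 bases in CD24-201 occur in one of them, so its level is slightly less certain than that of EPCAM.

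The 2 members used most often as stem cell markers, PROM1 and ALCAM, followed neither of these patterns nor each other. PROM1 (ENSG00000007062; chromosome 4, 15963076 to 16084378, reverse strand) stood at 5.78 FPKM in HCT116, 0.0784 FPKM in DLD-1 and 6.11 FPKM in SW620, and was listed at 0 in HCEC-1CT. The DLD-1 value corresponds to about 8 fragments, with a counting interval of 0.0340 to 0.155 FPKM. HCT116 and SW620 could not be told apart by counting error alone, with intervals of 5.33 to 6.27 and 5.65 to 6.60 FPKM. PROM1 was the one member at 4-fold or more higher in HCT116 than in DLD-1, with a log2 ratio of 2.65, and it was lower in DLD-1 than in SW620, with -2.72. Even where present its level was moderate, above 38.5% of genes with 1 FPKM in HCT116 and 40.3% in SW620. PROM1-206, which codes for 856 residues, held 88.7% of the gene in HCT116 and 78.3% in SW620, and was the 1 transcript above 0 in DLD-1.

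ALCAM (ENSG00000170017; chromosome 3, 105366909 to 105576900, forward strand) was expressed in every library. It stood at 72.9 FPKM in HCT116, 60.3 FPKM in DLD-1 and 19.2 FPKM in SW620, and at 43.8 FPKM in HCEC-1CT. The order was HCT116, DLD-1, HCEC-1CT and SW620, and no 2 counting intervals overlapped, but the first step turned with the scaling: the log2 ratio of HCT116 over DLD-1 was 0.27, and -0.10 on the TPM scale. It was the one member that no comparison called at 4-fold, and the highest level was 3.80 times the lowest. The log2 ratio was 0.72 for HCT116 over HCEC-1CT, 0.45 for DLD-1 over HCEC-1CT and -1.15 for SW620 over HCEC-1CT. Relative to the shift of all genes they were 0.34, 0.03 and -1.45, so the DLD-1 value was close to the general shift. ALCAM-201, the transcript of 583 residues, held 76.9%, 67.8%, 79.1% and 72.4% of the gene in HCT116, DLD-1, SW620 and HCEC-1CT. ALCAM-204, annotated as a retained intron, held 14.1%, 23.8%, 10.9% and 24.1%.

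The carcinoembryonic antigen genes formed the steepest gradient among the members, from SW620 through DLD-1 to HCT116. CEACAM5 (ENSG00000105388; chromosome 19, 41708585 to 41729798, forward strand) stood at 0.0400 FPKM in HCT116, 15.3 FPKM in DLD-1 and 66.0 FPKM in SW620, and was listed at 0 in HCEC-1CT. The HCT116 value comes from about 3 fragments, with a counting interval of 0.00851 to 0.121 FPKM. The log2 ratio was -3.97 (interval -4.10 to -3.77) for HCT116 over DLD-1 and -6.01 (-6.09 to -5.86) for HCT116 over SW620. That of DLD-1 over SW620 was -2.04 (-2.17 to -1.91), so the 4-fold limit lies inside its interval.

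CEACAM6 (ENSG00000086548; 41750977 to 41772208, forward strand), the next gene of the family along the chromosome, was listed at 0 in HCT116, stood at 2.23 FPKM in DLD-1 and 58.9 FPKM in SW620, and was listed at 0 in HCEC-1CT. In SW620 it was nearly as high as CEACAM5 per kilobase. In DLD-1 it was much lower than CEACAM5, at about 141 estimated fragments, and its log2 ratio of DLD-1 over SW620 was -4.21 (interval -4.42 to -4.00). CEACAM6 lay above 93.1% of genes with 1 FPKM in SW620 and above 17.3% in DLD-1.

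CEACAM1 (ENSG00000079385; 42507304 to 42561234, reverse strand) stood at 0.108 FPKM in HCT116, 6.90 FPKM in DLD-1, 19.1 FPKM in SW620 and 0.00964 FPKM in HCEC-1CT. The HCT116 and HCEC-1CT values rest on about 6 and 1 fragments. DLD-1 and SW620 were within 4-fold of each other, with a log2 ratio of -1.35 for DLD-1 over SW620. The antisense gene LIPE-AS1 overlaps CEACAM1 and stood at 3.43, 1.21, 1.31 and 1.45 FPKM in HCT116, DLD-1, SW620 and HCEC-1CT. No source used here says whether strand was kept, so the few CEACAM1 fragments in HCT116 cannot be told apart from reads of that gene.

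The 3 CEACAM genes are close relatives, so their separation in the counts was examined. The aligned coding bases of CEACAM5 and CEACAM6 were 90.4% identical, those of CEACAM1 and CEACAM6 89.2% and those of CEACAM1 and CEACAM5 79.3%. Even so, no 100-base window of the main CEACAM5 transcript occurred in CEACAM6 or CEACAM1. Windows of CEACAM5 (473 of 2775) and CEACAM6 (51 of 2601) recurred in AC243967.1 alone, an annotated locus that overlaps both and lay at or below 0.0777 FPKM. For CEACAM1, 18 of 3328 windows recurred in CEACAM3 and 10 in LIPE-AS1. Reads shorter than this would share more, and no source used here states the read length.

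The windows from 250 bases before to 50 after the RefSeq starts of CEACAM5 and CEACAM6 were 78.8% identical over their aligned bases, and those of CEACAM1 and CEACAM5 70.0%. Of 2 motifs searched on both strands, 1 is shown, chosen after its matches were seen because it is in CEACAM5 and CEACAM6 and not in CEACAM1. The other, GGGCGG, has 0 matches in the CEACAM5 window and 1 each in those of CEACAM6 and CEACAM1, and is in 45.0% of all promoter windows. The E-box CACGTG, which reads the same on both strands, occurs once in the CEACAM5 window and once in that of CEACAM6. It lies 46 and 45 bases before their RefSeq starts, and other annotated starts differ. In GENCODE 29 CEACAM6-201, the CEACAM6 transcript above 0, starts at 41755421, which is upstream of the box. CEACAM5-202 starts at 41708585, within the CEACAM5 stretch printed below. CACGTG is found in 7.26% of all 35116 promoter windows of RefSeq (GRCh38.p14). USF factors are known to bind such boxes. The CEACAM1 window holds no CACGTG, and the bases aligned to it are printed in capitals as well.
CEACAM5 (chr19:41708568-41708597, forward strand): acacccatgaccCACGTGatgctgagaagt
CEACAM6 (chr19:41755473-41755502, forward strand): gcacccatgaccCACGTGaccctgggaaat
CEACAM1 (chr19:42528505-42528534, reverse strand): cccgccccagcaCACATGatcagacaaagc
A match of letters is a description and not a bound site. USF1 and USF2 themselves were at similar levels in the 4 libraries, with USF1 at 17.9, 14.7, 16.5 and 14.2 FPKM and USF2 at 33.4, 42.6, 28.8 and 30.6 FPKM in HCT116, DLD-1, SW620 and HCEC-1CT. The windows of the other members that RefSeq listed (ALCAM, PROM1 and CD24) held no CACGTG.

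The rest of the family was almost silent. Of 19 further CEACAM and PSG genes, 2 reached 1 FPKM in any library, CEACAM19 and PSG4. CEACAM19 was highest in HCEC-1CT, at 1.11 FPKM in HCT116, 3.06 FPKM in DLD-1 and 1.48 FPKM in SW620, against 8.28 FPKM in HCEC-1CT. PSG4, a pregnancy-specific glycoprotein gene, was listed at 0 in the 3 cancer lines and at 1.42 FPKM in HCEC-1CT. CEACAM7, the neighbour of CEACAM5 and a gene of differentiated colonocytes, was listed at 0 in HCT116, 0.490 FPKM in DLD-1, 0.192 FPKM in SW620 and 0 in HCEC-1CT. CEACAM3 and CEACAM8, which mark granulocytes, stayed at or below 0.0908 FPKM in every library. Between the start of CEACAM7 and the end of CEACAM8 (chromosome 19, 41673307 to 42595055) lie 26 protein-coding genes outside the family. For HCT116 over SW620, 18 of them had 1 FPKM in either library, 1 was 4-fold higher and 0 were lower, with a median log2 ratio of 0.54. The 3 members in this stretch had log2 ratios of -4.18 (CEACAM1), -6.01 (CEACAM5) and -5.90 (CEACAM6).

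**Figure D2:**
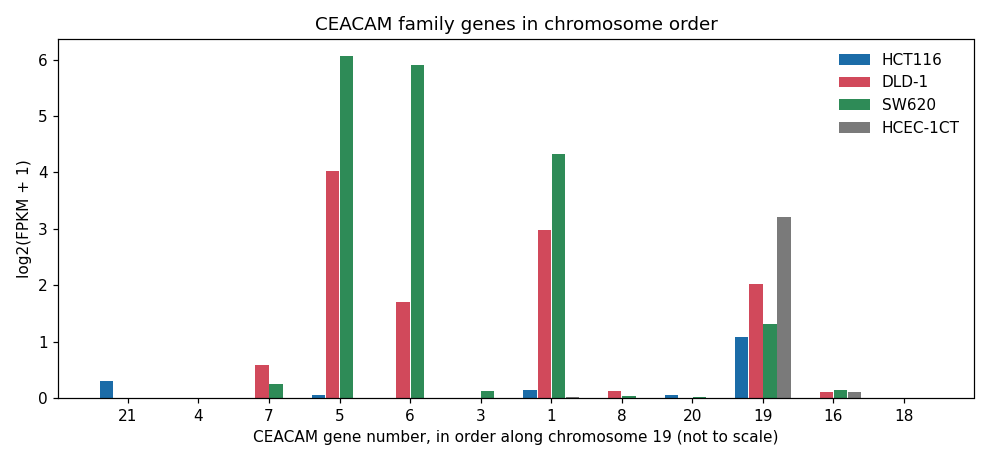
Level of 12 CEACAM genes as log2(FPKM + 1), in their order along chromosome 19, with 1 bar per library. CEACAM5, CEACAM6 and CEACAM1 stand out in SW620 (66.0, 58.9 and 19.1 FPKM) and CEACAM19 in HCEC-1CT (8.28 FPKM).

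Among the coding transcripts of CEACAM1, short-tailed forms outweighed long-tailed ones in DLD-1 and SW620. The long cytoplasmic tail needs an exon of 53 bases (chr19:42511576-42511628, reverse strand, GRCh38), and without it the reading frame shifts and ends early. The exon is shown in full because its use decides the tail (GENCODE 29).
CEACAM1 53-base exon: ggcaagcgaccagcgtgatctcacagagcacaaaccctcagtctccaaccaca
Of the coding transcripts that span this exon, the 3 without it held 3.20 FPKM in DLD-1 and 12.2 FPKM in SW620, and the 3 with it held 1.11 FPKM in DLD-1 and 3.00 FPKM in SW620. The forms without the exon thus made up 74.1% in DLD-1 and 80.3% in SW620. Most of this was CEACAM1-207, a form of 464 residues, at 3.09 FPKM in DLD-1 and 11.3 FPKM in SW620. CEACAM1-201, the form of 526 residues with the exon, stood at 0.876 FPKM in DLD-1 and 2.68 FPKM in SW620. In HCT116 and HCEC-1CT the gene was too low for a share. Of the genes known to act on epithelial or CEACAM1 splicing, ESRP1 stood at 44.7, 22.1, 30.1 and 0 FPKM and ESRP2 at 7.80, 30.3, 16.9 and 0.0114 FPKM in HCT116, DLD-1, SW620 and HCEC-1CT. The other 5 of the 7 listed, HNRNPL, HNRNPM, HNRNPA1, PTBP1 and RBFOX2, were within 4-fold in every comparison.

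The main CEACAM5 transcript, CEACAM5-201, held 74.4% of the gene in DLD-1 and 48.9% in SW620. SW620 also held 27.3 FPKM of CEACAM5-210, or 41.4% of the gene, against 0.215 FPKM or 1.41% in DLD-1. Both forms code for 702 residues, and CEACAM5-210 is the shorter transcript, at 2228 bases against 2874. CEACAM6 had 1 transcript above 0, CEACAM6-201. Over the 7 members, 1 transcript held at least 50% of the gene in 16 of 18 cases where a library had 1 FPKM of the gene.

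**Figure D3:**
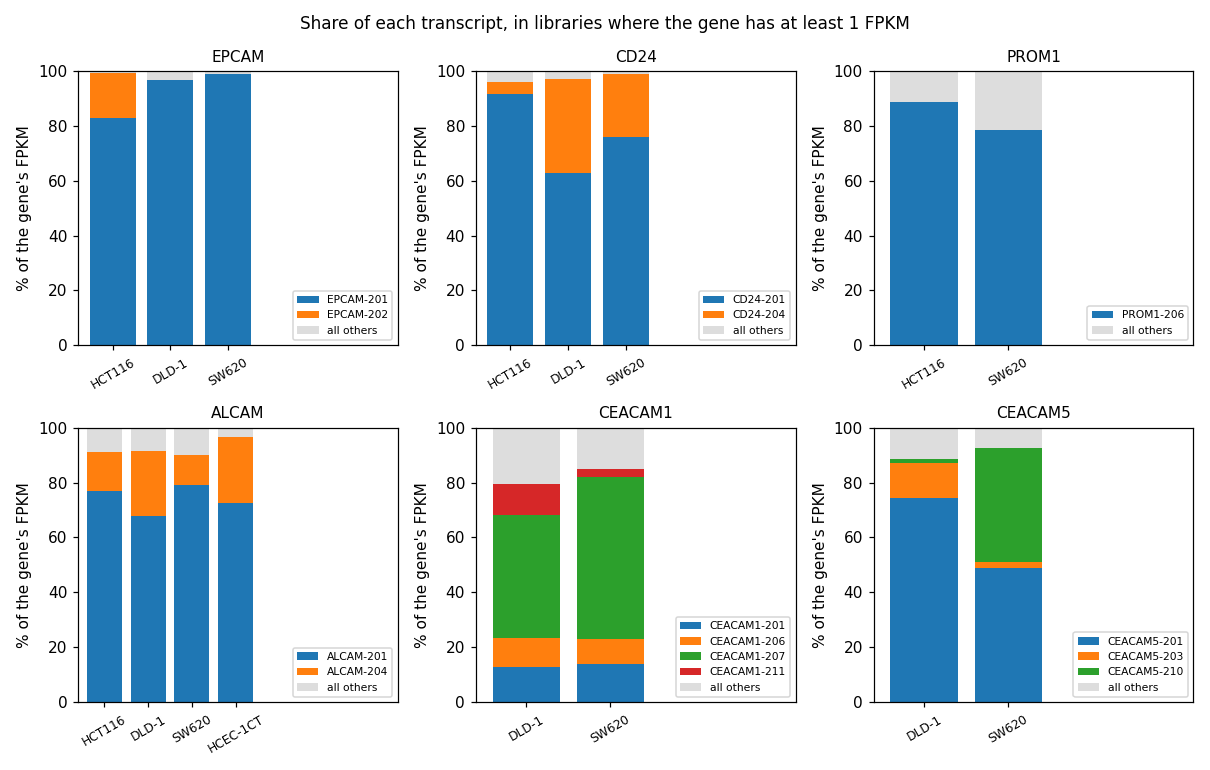
Share of each transcript in the FPKM of 6 members, by library, for libraries with at least 1 FPKM of the gene; transcripts under 10% in every library are pooled in grey. EPCAM-202 is visible in HCT116 alone (16.1%), and CEACAM5-210 in SW620 (41.4%) far more than in DLD-1 (1.41%).

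The cancer lines were also set against each other. For HCT116 over DLD-1, 1 of 7 members was 4-fold higher (PROM1) and 3 were lower (CD24, CEACAM1 and CEACAM5), where 5.51% of all genes tested were higher and 5.04% lower. For HCT116 over SW620, 0 were higher and 4 lower (CD24, CEACAM1, CEACAM5 and CEACAM6), against 3.95% and 4.37% of all genes. For DLD-1 over SW620, 0 were higher and 3 lower (PROM1, CEACAM5 and CEACAM6), against 4.82% and 5.35%. EPCAM and ALCAM were within 4-fold between every pair of cancer lines. The median log2 ratios of the members were -1.69, -2.65 and -1.35 for the 3 pairs in that order, beside -0.08, 0.11 and 0.16 over all genes tested. With totals set equal (the TPM scale) the share of calls on the higher side for HCT116 over DLD-1 was 37.3% in place of 52.2%. The members' counts were then 1 higher and 4 lower, with CEACAM6 added at a log2 ratio of -2.61. As CEACAM6 was listed at 0 in HCT116, this too came from larger values beside the added 1. The call of CEACAM5 for DLD-1 over SW620 ended on the TPM scale (-1.89) and with protein-coding totals set equal (-1.98).

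**Figure D4:**
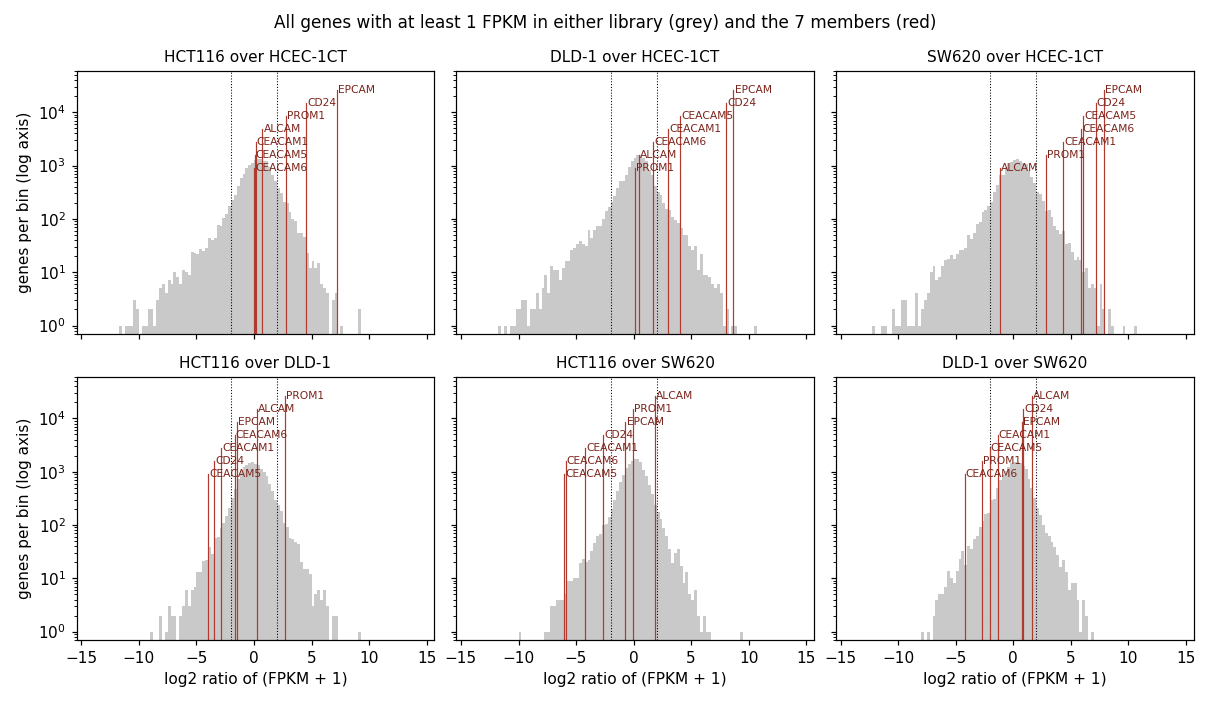
Distribution of the log2 ratio of FPKM + 1 over all genes with at least 1 FPKM in either library (grey, log axis of counts) in the 6 comparisons, with red lines at the 7 members and dotted lines at 4-fold. EPCAM lies at 7.18, 8.67 and 7.89 in the upper row, where it was listed at 0 in HCEC-1CT and the ratio depends on the pseudocount.

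Partners of EPCAM at the membrane were often, but not always, higher in the cancer lines. Of 9 listed partners, 4 were 4-fold higher in all 3 cancer lines than in HCEC-1CT, as were 2.68% of all genes with 1 FPKM in any library. The 4 partners were CLDN7, the protease ST14 (matriptase) and its inhibitors SPINT1 and SPINT2. CLDN7 stood at 45.6 FPKM in HCT116, 94.6 FPKM in DLD-1 and 11.9 FPKM in SW620, against 0.517 FPKM in HCEC-1CT. TSPAN8, a tetraspanin, was listed at 0 in HCT116, stood at 65.7 FPKM in DLD-1 and 33.3 FPKM in SW620, and was listed at 0 in HCEC-1CT. CD44, the hyaluronan receptor, stood at 179 FPKM in HCT116, 113 FPKM in DLD-1, 15.3 FPKM in SW620 and 96.4 FPKM in HCEC-1CT, so like ALCAM it was lowest in SW620. The 9 genes for cleavage of EPCAM (ADAM proteases, BACE1 and the gamma-secretase subunits) had 0.786 FPKM or more in every line, and not 1 was 4-fold higher in a cancer line than in HCEC-1CT. One was lower in HCT116 (NCSTN) and 1 in SW620 (APH1B, a gamma-secretase subunit). Of all genes tested, 10.3%, 10.4% and 10.3% were higher in HCT116, DLD-1 and SW620, and 5.73%, 6.3% and 6.36% lower. With 9 genes, counts of 0 and 1 are near these shares. APH1B stood at 1.03 FPKM in HCT116, 3.14 FPKM in DLD-1 and 0.786 FPKM in SW620, against 6.84 FPKM in HCEC-1CT.

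Other stem cell surface genes divided the lines as well. Of 20 listed genes, all of which reached 1 FPKM somewhere, 2 were 4-fold higher in all 3 cancer lines (ITGA6 and EPHB3) and 3 lower (DPP4, THY1 and LRIG1). Of all genes with 1 FPKM in any library, 2.68% were higher in all 3. The share lower in all 3 was not computed. Line by line, 3, 8 and 6 were higher than in HCEC-1CT in HCT116, DLD-1 and SW620, and 3, 3 and 5 lower. Of all genes tested, 10.3%, 10.4% and 10.3% were higher and 5.73%, 6.3% and 6.36% lower in that order. ITGA6, the alpha chain of the laminin receptor, stood at 23.5 FPKM in HCT116, 85.2 FPKM in DLD-1 and 173 FPKM in SW620, against 0.384 FPKM in HCEC-1CT. LGR6, a receptor of R-spondins, had 0.0647 FPKM in HCT116, 12.3 FPKM in DLD-1 and 33.2 FPKM in SW620 and was listed at 0 in HCEC-1CT. LGR5, its relative on crypt stem cells, was listed at 0 in HCT116, at 3.41 FPKM in DLD-1, at 3.97 FPKM in SW620 and at 0 in HCEC-1CT. DPP4 (CD26) stood at 9.02 FPKM in HCT116, 1.53 FPKM in DLD-1 and 0.841 FPKM in SW620, against 103 FPKM in HCEC-1CT. No single line was highest for these markers together. CD44 was highest in HCT116, ALCAM in HCT116 or DLD-1 depending on the scaling, TSPAN8 and KIT in DLD-1, and ITGA6 and LGR6 in SW620. PROM1 was at a similar level in HCT116 and SW620.

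Of 22 further carcinoma surface antigens, 21 reached 1 FPKM. In HCT116 5 were 4-fold higher than in HCEC-1CT and 1 lower, in DLD-1 10 and 0, and in SW620 7 and 1. Of all genes tested, 10.3%, 10.4% and 10.3% were higher and 5.73%, 6.3% and 6.36% lower in that order. One antigen, the receptor ERBB3, was higher in all 3, as were 2.68% of all genes. It stood at 7.65 FPKM in HCT116, 88.5 FPKM in DLD-1 and 38.4 FPKM in SW620, against 0.110 FPKM in HCEC-1CT. MUC13, a membrane mucin, stood at 0.400 FPKM in HCT116, 24.6 FPKM in DLD-1 and 127 FPKM in SW620 and was listed at 0 in HCEC-1CT, an order like that of CEACAM5. CDH17, the intestinal cadherin, had 0.0833 FPKM in HCT116, 179 FPKM in DLD-1 and 20.5 FPKM in SW620, against 0.0551 FPKM in HCEC-1CT. TM4SF1 had 0.188 FPKM in HCT116, 69.0 FPKM in DLD-1 and 179 FPKM in SW620, and 155 FPKM in HCEC-1CT. HCT116 was 4-fold or more below DLD-1 in 11 of these 21 and above it in 2, where 5.04% of all genes tested were lower and 5.51% higher.

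**Figure D5:**
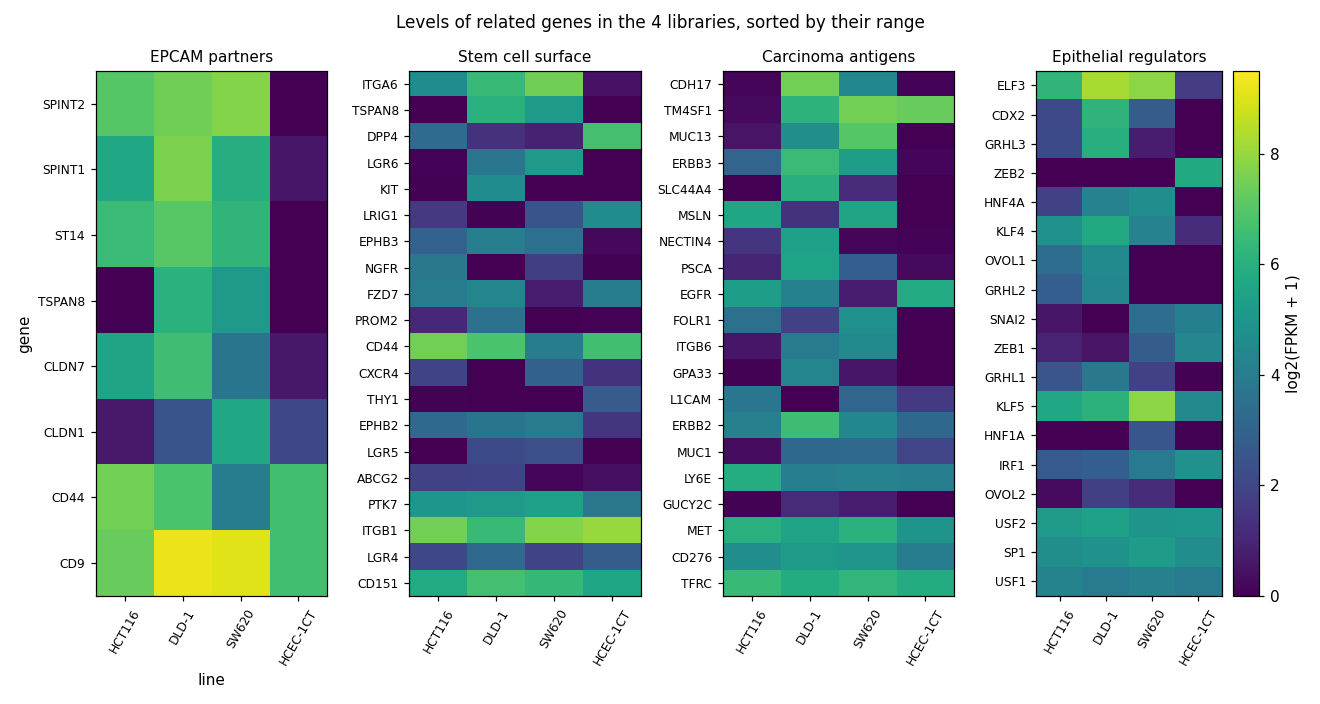
Levels of genes from 4 related lists as log2(FPKM + 1), with 1 row per gene and 1 column per library in the order HCT116, DLD-1, SW620 and HCEC-1CT, sorted by range. SPINT2 leads the EPCAM partners with 126, 174 and 210.1 FPKM in the cancer lines and is listed at 0 in HCEC-1CT, where ZEB2 stands at 54.0 FPKM.

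Adhesion molecules of the immunoglobulin superfamily other than the members were called in both directions. Of 20, 6, 4 and 3 were 4-fold higher and 4, 6 and 4 lower than in HCEC-1CT in HCT116, DLD-1 and SW620. Of all genes tested, 10.3%, 10.4% and 10.3% were higher and 5.73%, 6.3% and 6.36% lower. BCAM, the Lutheran glycoprotein, was higher in all 3, as were 2.68% of the genes with 1 FPKM in any library. The share of all genes lower in all 3 was not computed. ICAM1, an inducible ligand of leukocyte integrins, was lower in all 3, at 5.05 FPKM in HCT116, 4.96 FPKM in DLD-1 and 4.24 FPKM in SW620, against 179 FPKM in HCEC-1CT, and so were VCAM1 and JAM3. NECTIN3 stood at 34.6 FPKM in HCT116, 1.77 FPKM in DLD-1, 0.140 FPKM in SW620 and 25.6 FPKM in HCEC-1CT. MCAM (CD146) stood at 32.4 FPKM in HCT116, 0.141 FPKM in DLD-1, 4.86 FPKM in SW620 and 3.73 FPKM in HCEC-1CT.

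The machinery behind the GPI anchor of CD24, CEACAM5 and CEACAM6 was present everywhere, HCT116 and HCEC-1CT included. Of 28 genes for making and remodelling the anchor, 24 reached 1 FPKM in HCT116, 27 in DLD-1, 27 in SW620 and 26 in HCEC-1CT. Not 1 was 4-fold higher or lower in a cancer line than in HCEC-1CT, and PIGY stayed below 1 FPKM in every library. Of all genes tested, 10.3%, 10.4% and 10.3% were higher in HCT116, DLD-1 and SW620, and 5.73%, 6.3% and 6.36% lower. Between cancer lines, PGAP3 and PIGN were 4-fold lower in HCT116 than in DLD-1, against 5.04% of all genes. PGAP3 was also 4-fold higher in DLD-1 than in SW620, against 4.82%. The widest range was in PGAP3, a remodelling enzyme, at 0.850 FPKM in HCT116, 18.3 FPKM in DLD-1, 2.20 FPKM in SW620 and 4.51 FPKM in HCEC-1CT. Receptors that bind members (SIGLEC10 for CD24, SELP for CD24, CD6 for ALCAM and HAVCR2 for CEACAM1) stayed below 1 FPKM in every library. SIGLEC10 was listed at 0 in all 4. PTPN6 (SHP-1), the phosphatase recruited by the long tail of CEACAM1, stood at 16.6 FPKM in HCT116, 15.4 FPKM in DLD-1 and 24.5 FPKM in SW620, against 0.351 FPKM in HCEC-1CT. LGALS3, a lectin that binds CEACAM5, stood at 37.2 FPKM in HCT116, 320.2 FPKM in DLD-1 and 144 FPKM in SW620, against 63.0 FPKM in HCEC-1CT.

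Of 18 measured transcription factors of epithelial and intestinal genes, 3 were 4-fold higher in all 3 cancer lines and 1 lower. Of all genes with 1 FPKM in any library, 2.68% were higher in all 3, and the share lower in all 3 was not computed. ELF3 stood at 72.6 FPKM in HCT116, 305 FPKM in DLD-1 and 229.9 FPKM in SW620, against 2.13 FPKM in HCEC-1CT. CDX2, the intestinal homeobox factor, stood at 3.27 FPKM in HCT116, 70.8 FPKM in DLD-1 and 6.04 FPKM in SW620 and was listed at 0 in HCEC-1CT, and KLF4 was the third. ZEB2, a repressor of epithelial genes, was listed at 0 in the cancer lines and stood at 54.0 FPKM in HCEC-1CT. GRHL2, an activator of epithelial genes, was at 6.15 FPKM in HCT116 and 20.1 FPKM in DLD-1, and was listed at 0 in SW620 and HCEC-1CT.

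Genes with the most similar profile to each member were sought among 8832 protein-coding genes with 10 FPKM in a library, by the distance between centred log2(FPKM + 1) values over the 4 libraries. With 4 points this is a description only. EPCAM was closest to SPINT2 (distance 0.96), SFN (1.15) and S100A14 (1.33), and CD24 to CDH1 (0.54), KRT18 (1.13) and ELF3 (1.24). CDH1, E-cadherin, stood at 27.2 FPKM in HCT116, 189 FPKM in DLD-1, 129 FPKM in SW620 and 0 in HCEC-1CT. CEACAM5 was closest to PADI1 (0.43), TMPRSS2 (0.45) and MUC13 (0.68), CEACAM6 to FOXA2 (0.69), ITGB7 (0.77) and SP5 (0.82), and CEACAM1 to ITGB6 (0.70), C9orf152 (0.76) and CST7 (0.76). TMPRSS2, a membrane protease, was listed at 0 in HCT116, at 21.7 FPKM in DLD-1, at 83.9 FPKM in SW620 and at 0 in HCEC-1CT. FOXA2, an endodermal factor, stood at 0.0163 FPKM in HCT116, 0.917 FPKM in DLD-1 and 39.0 FPKM in SW620 and was listed at 0 in HCEC-1CT. ALCAM was closest to PQLC1 (0.13), SMAD5 (0.17) and PABPC4 (0.19), and PROM1 to RPS24 (0.21), RPL36 (0.21) and BAIAP3 (0.26). The ribosomal protein genes beside PROM1 have far higher levels and smaller fold differences. RPS24 stood at 606 FPKM in HCT116, 115 FPKM in DLD-1, 675 FPKM in SW620 and 90.9 FPKM in HCEC-1CT. Adding 1 to FPKM shrinks the differences of a low gene such as PROM1, so this nearness does not mean equal fold changes.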

How the data were processed

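RNA of spheroids of 4 lines was sequenced, 1 library each. The authors deposited FPKM values in 2 tables, of 58740 genes and 207345 transcripts. FastQC and HISAT2 were used with hg38, per the submitters' processing notes, and no source used here names the program behind the FPKM values, or its annotation and filters. One value column of each table, 2 in all, matches no sample and was not used. Gene types, exons and transcript sequences came from GENCODE 29 (58275 IDs matched, 96.7% with the same coordinates), and promoter windows from RefSeq (GRCh38.p14), by symbol, for 6 of 7 members.

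Depth was read from single-transcript genes, where FPKM times length peaked at whole steps: at 1 step (tolerance 0.01) lay 383 to 497 values a library, against 15 to 25 at 1.25 steps. Fragments behind each value were estimated from it, with exact Poisson intervals. The calculation of depth and calls was tested on simulated data. A pseudocount of 1 and a limit of 4-fold, counted where the higher value was 1 FPKM or more, were used, and no test was run. Such ratios understate changes of low genes.

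Members and lists were chosen with earlier results of these data known. Named genes are the members, up to 4 per list with the widest range, the 3 nearest profiles and transcripts of 10% or more; other genes named were chosen after their values were seen. Python 3.11.15, pandas 2.3.3, numpy 2.4.6, scipy 1.17.1, Biopython 1.88 and matplotlib 3.10.9 were used. Some list genes and a sequence are not reported here.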

Additional observations from a re-analysis of the deposited data

Results flagged for a closer look

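ALCAM as deposited was above HCEC-1CT in some cancer lines and below it in another. Its log2 ratio of FPKM + 1 was 0.72 in HCT116 and 0.45 in DLD-1, but -1.15 in SW620. Less the median shift of all genes these were 0.34, 0.03 and -1.45, so the DLD-1 value was then within its counting error of 0. With 1 library per line the difference between the lines was not tested, and all 3 ratios share the HCEC-1CT library.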

How the results depend on the processing

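No paired analysis was possible because each line has 1 library, and for the same reason no replicate could be left out. The 6 comparisons together held 12833 calls over all genes, and 25539 with a pseudocount of 0.1, 4233 with a pseudocount of 5 and 39425 at 2-fold. Of the members' counts, 2 changed by more than 1.5 times with a pseudocount of 5. For HCT116 over DLD-1 it was 0 higher in place of 1, and for DLD-1 over SW620 1 lower (CEACAM6) in place of 3. Smaller changes at 5 were 2, 3 and 5 higher in HCT116, DLD-1 and SW620 over HCEC-1CT, in place of 3, 4 and 6. HCT116 over DLD-1 then had 2 lower in place of 3. At this setting 2.70%, 3.57% and 3.55% of all genes tested were higher in HCT116, DLD-1 and SW620 over HCEC-1CT. For HCT116 over DLD-1, 1.29% were higher and 1.69% lower, and for DLD-1 over SW620 1.73% were lower. At 2-fold, ALCAM was counted as 1 lower for SW620 over HCEC-1CT, in place of 0. It was also 1 higher for HCT116 over SW620 and 1 higher for DLD-1 over SW620, in place of 0 each. Of all genes tested, 16.4%, 16.6% and 21.1% were called in those directions, so 1 member is near the general share. HCT116 over DLD-1 had 5 lower in place of 3, against 20.1% of all genes. The other members' counts stayed within 1.5 times under the 8 alternatives. Of 252 single ratios recomputed under 6 settings, 115 left their counting interval and 0 of those called changed sign. One ratio within 4-fold did: ALCAM for HCT116 over DLD-1 was 0.27, and -0.10 on the TPM scale. For genes listed at 0 in HCEC-1CT the size of the ratio depends on the pseudocount: for EPCAM in DLD-1 it was 11.99 at 0.1 and 6.36 at 5, against 8.67. EPCAM and CD24 were called in all 3 cancer lines, and CEACAM5 in DLD-1 and SW620, at each of the 3 pseudocounts, while PROM1 was not called at 5 and CEACAM6 in DLD-1 was called at 0.1. Both the single library a line and the depth limit the comparisons.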

Other observations

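The tables write a value of 0 in 2 ways, with 1 decimal or with 6, and the sources used here do not say what the difference stands for. In HCEC-1CT 20235 genes carry the short form and 11960 the long one. EPCAM, CD24, CEACAM5 and CEACAM6 carry the short form in HCEC-1CT, while PROM1 in HCEC-1CT and CEACAM6 in HCT116 carry the long one. Where any transcript of a gene carries the short form, all of its transcripts do, in 100% of such genes in DLD-1, SW620 and HCEC-1CT and in 16570 of 16571 in HCT116.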
